A study of Mus musculus with 12 samples.

Results

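Heat shock proteins and their cochaperones were followed in 12 mouse oral tumours, 6 labelled KHR and 6 labelled KHR-NICD. The members were 10 named genes, Hspa1a, Hspa1b, Hspa5, Hspa8, Hspb1, Hsph1, Hsp90aa1, Hsp90ab1, Hsp90b1 and Dnajb1, and every array probe whose platform symbol is one of them was taken. This gave 10 of the 25697 probes and 8 of the 10 genes, since the platform annotation assigns no probe to Hspa1b or Hsp90ab1. The mice were FVB x C57BL/6 F1 animals, and tumours were taken after 21 days of growth, put in Trizol and snap frozen. Total RNA of each tumour was read on its own 1-colour bead array (Illumina MouseRef-8 v2). The labels do not spell out KHR or name a driver, promoter or animal for any tumour. NICD is the usual abbreviation for the intracellular domain of a Notch receptor, which enters the nucleus after cleavage and activates transcription with the DNA-binding protein RBPJ. The replicates are called biological in the labels, without saying whether each is from its own mouse. The fit took the 12 tumours as independent, and its p-values would be too small if tumours shared a mouse. They rest on the spread between tumours, which may be partly technical.

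Chaperones bind unfolded or unstable proteins and help them fold, assemble, cross membranes or be degraded. HSP70 proteins work through cycles of ATP hydrolysis that J-domain proteins such as Dnajb1 start and HSP110 proteins such as Hsph1 reset by exchanging the nucleotide, while HSP90 proteins receive clients that are nearly folded, among them many kinases. In the cytosol the heat shock factor HSF1 switches on many of these genes when unfolded proteins build up. In the endoplasmic reticulum the unfolded protein response does the same for Hspa5 (BiP) and Hsp90b1 (GRP94). Stratified epithelium and muscle both make the small heat shock protein Hspb1 (HSP27).

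The start regions below show how members differ in the letters through which these pathways are known to act. RefSeq windows of 300 bases (GRCm38.p6), from 250 bases before a gene's start to 50 after it, were found for 7 of the 10 members (9 windows). Windows are printed 5′ to 3′ along the gene for the 5 genes whose values are described most, 1 start each, and capitals mark a heat shock element or an ER stress response element.
Hspa1a, chr17:34972107-34972406, minus strand: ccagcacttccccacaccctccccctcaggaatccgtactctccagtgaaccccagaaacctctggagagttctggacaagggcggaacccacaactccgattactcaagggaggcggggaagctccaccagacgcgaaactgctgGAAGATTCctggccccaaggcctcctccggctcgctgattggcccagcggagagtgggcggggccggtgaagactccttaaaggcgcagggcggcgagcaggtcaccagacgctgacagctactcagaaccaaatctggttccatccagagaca
Hspb1, chr5:135887669-135887968, plus strand: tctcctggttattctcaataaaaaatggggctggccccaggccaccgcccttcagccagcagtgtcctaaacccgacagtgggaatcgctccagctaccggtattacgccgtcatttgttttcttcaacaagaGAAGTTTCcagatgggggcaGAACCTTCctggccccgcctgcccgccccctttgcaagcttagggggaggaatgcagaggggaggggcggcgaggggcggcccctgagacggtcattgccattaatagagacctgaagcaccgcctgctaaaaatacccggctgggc
Hsph1, chr5:149636287-149636586, minus strand: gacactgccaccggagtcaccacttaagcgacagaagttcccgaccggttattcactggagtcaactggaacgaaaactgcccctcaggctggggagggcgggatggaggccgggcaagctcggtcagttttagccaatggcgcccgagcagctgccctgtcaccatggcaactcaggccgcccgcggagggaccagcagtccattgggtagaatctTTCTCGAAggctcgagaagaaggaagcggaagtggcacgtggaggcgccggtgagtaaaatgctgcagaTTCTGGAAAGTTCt
Hsp90b1, chr10:86705395-86705694, minus strand: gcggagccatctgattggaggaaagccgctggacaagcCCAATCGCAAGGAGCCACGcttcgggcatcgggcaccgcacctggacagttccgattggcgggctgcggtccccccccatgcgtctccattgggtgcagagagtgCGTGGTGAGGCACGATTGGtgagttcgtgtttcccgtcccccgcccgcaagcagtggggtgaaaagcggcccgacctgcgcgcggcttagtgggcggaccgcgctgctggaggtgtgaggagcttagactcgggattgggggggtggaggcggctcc
Dnajb1, chr8:83607925-83608224, plus strand: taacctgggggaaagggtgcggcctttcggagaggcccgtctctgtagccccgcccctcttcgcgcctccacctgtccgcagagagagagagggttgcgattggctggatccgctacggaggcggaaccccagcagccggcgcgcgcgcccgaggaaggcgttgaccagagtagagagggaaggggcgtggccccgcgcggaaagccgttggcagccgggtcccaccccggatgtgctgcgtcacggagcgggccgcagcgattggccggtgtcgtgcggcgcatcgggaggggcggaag
A heat shock element was searched as the 2-unit form GAANNTTC or TTCNNGAA and the 3-unit form, which is TTCNNGAA followed directly by NNTTC. The ER stress response element was searched as CCAAT, then 9 bases of any kind, then CCACG, and every motif on both strands. Only exact matches to these patterns were counted, so imperfect forms of an element were not marked. The 3-unit form contains the 2-unit one. The 2-unit form was present in windows of 4 of the 7 genes, Hspa1a, Hspa1b, Hspb1 and Hsph1, and in 15.1% of all 32851 windows. Hspb1 had 2 of them, GAAGTTTC beginning 117 bases before the start and GAACCTTC beginning 97 bases before it. The 3-unit form was found at Hsph1, just inside the transcribed part as TTCTGGAAAGTTC, and in 0.603% of all windows. The ER stress response element was found at Hspa5 and Hsp90b1, the genes among the 7 whose products work in the endoplasmic reticulum, and in 0.119% of all windows. Hsp90b1 carried 2 of them, 1 on each strand. The printed Dnajb1 window held no exact match to either element. The letters GTGGGAA, a common form of the site bound by RBPJ, were found in 1 of the 7 genes, Hspb1, beginning 172 bases before the start, and in 6.38% of all windows. The windows of Hspa1a and Hspa1b differed at 4 of 300 bases (98.7% identity). That comparison covers the start regions only. No transcript or probe sequence was examined, so whether the Hspa1a probe also reads Hspa1b was not tested.

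Each array detected 43.6% to 48.1% of its probes, at a detection p under 0.05 against its own background. Precision is limited by the number of arrays. A probe was tested when it was detected on at least 6 of the 12 arrays, which kept 11721 probes and 7 of the 10 member probes, for 6 genes. Of the 13 keratinocyte markers listed for the labelled tissue, 11 were measured, with a mean log2 value between 11.42 and 11.74 in every tumour, whereas 0 of the 9 T and NK cell markers with a probe passed the detection filter. Tumours KHR 1 and KHR 2 stood apart on 1 Hspa8 probe and had the highest skeletal muscle levels, and values without them are given beside several results. The Y-linked transcript Eif2s3y was detected in 5 tumours (KHR 4, 5 and 6, KHR-NICD 1 and 4) and not in the other 7. In bulk tissue, fewer cells of a type and less RNA per cell cannot be told apart.

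No chaperone passed the test between the tumour types. Limma called 0 of the 7 kept member probes at an adjusted p under 0.05, where it called 8 of 11721 probes overall (0.0683%), of which 0.0256% were higher and 0.0427% lower in KHR-NICD. At an unadjusted p under 0.05 there were 2 of 7, Hspb1 and Dnajb1, both lower in KHR-NICD, beside 13.2% of all probes in either direction and 6.92% lower. The groups overlapped for all 7, and did not overlap for 1.37% of all probes. The median log2 difference over the 7 probes was 0.011 (4 positive, 3 negative), beside 0.006 over all kept probes. The median standard error was 0.095 for these 7 and 0.13 for all kept probes.

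**Figure D1:**
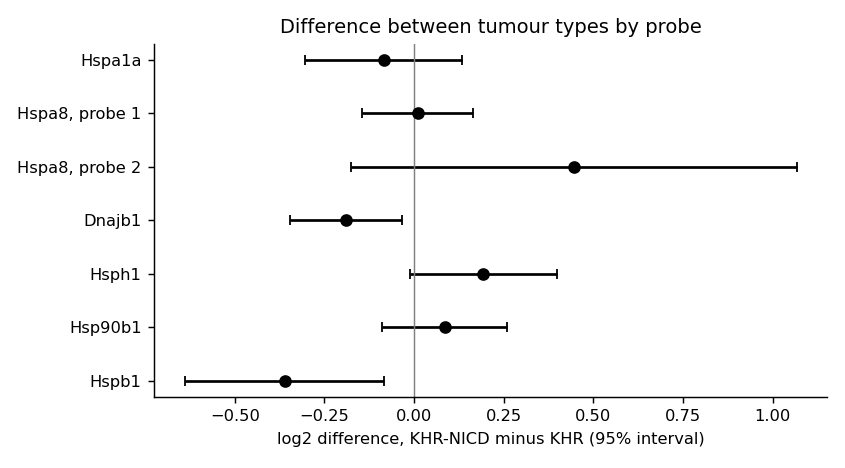
Log2 difference between KHR-NICD and KHR tumours (horizontal axis) for each kept member probe, with 95% intervals from limma. The intervals of Hspb1 and Dnajb1 lie below 0, and neither probe passed adjustment over all probes.

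The cytosolic HSP70 genes did not pass the test. Hspa8 (HSC70), the HSP70 that cells make at all times and that also strips clathrin from vesicles, was read by a pair of probes. On the first (ILMN_1260103), the log2 value had a lowest, median and highest of 13.93, 14.08 and 14.24 over the KHR tumours, against 14.05, 14.09 and 14.17 over the KHR-NICD tumours. The KHR-NICD values lay inside the KHR range. The log2 difference was 0.011 ± 0.072 (SE), with a 95% interval from -0.14 to 0.17 (limma adjusted p = 0.969). Its SD within a tumour type, 0.079, was larger than that of 1.39% of kept probes. Its scanner signals were high, 15967 to 20737. Whether readings at this level are compressed was not tested, so the small spread does not by itself show a steady transcript.

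The second Hspa8 probe (ILMN_2918479) gave another picture. It stood at 9.70 in KHR 1 and 10.24 in KHR 2, and between 11.17 and 11.70 in the other 10 tumours. Against the median of those 10, KHR 1 and KHR 2 stood at -1.70 and -1.15, while on the first probe the same tumours stood at 0.034 and 0.16. The difference between tumour types on this probe was 0.45 ± 0.29 (SE, limma adjusted p = 0.546), and without KHR 1 and 2 it was -0.042 (limma adjusted p = 0.884). Bead standard errors were 1.95% to 4.06% of its signal. The skeletal muscle score, the mean log2 value of 14 measured muscle genes of 16 listed, was 10.08 in KHR 1 and 9.91 in KHR 2, and between 6.80 and 9.46 in the others. Its part in the probe's values was not tested.

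**Figure D2:**
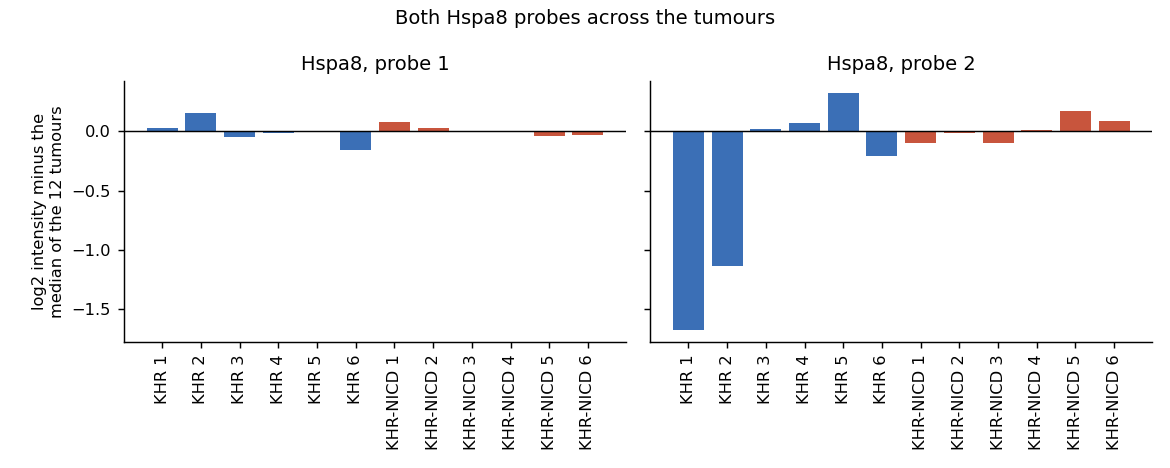
Log2 intensity of each Hspa8 probe in each tumour, as the difference from that probe's median over the 12 tumours, on a shared vertical axis (blue KHR, red KHR-NICD). On probe 2, KHR 1 (9.70) and KHR 2 (10.24) lie below the other 10 tumours, whose lowest is 11.17, while probe 1 stays near 0 in all tumours.

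Hspa1a, the stress-induced HSP70 that is kept low in unstressed cells (probe ILMN_2829594), was detected on all 12 arrays. Its lowest, median and highest log2 values were 9.83, 10.16 and 10.27 over the KHR tumours, against 9.83, 10.06 and 10.29 over the KHR-NICD tumours. The ranges nearly coincided. The log2 difference was -0.085 ± 0.10 (SE), with an interval from -0.30 to 0.13 (limma adjusted p = 0.774). After subtracting each type's mean, the genes whose log2 values followed Hspa1a most closely over the 12 tumours were Zfp715, the immunoproteasome subunit Psmb8, Esyt1, Arrb2 (beta-arrestin) and Ormdl3, with r between 0.77 and 0.84. These genes were picked for the highest r among all measured genes outside the members. They are given as a description, with no test of r and no statement on shared function or control.

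The measured cochaperones of HSP70 had differences of opposite sign, and neither passed the test. Dnajb1 (HSP40), which delivers clients to HSP70 and stimulates its ATPase (probe ILMN_1240323), had a lowest, median and highest log2 value of 12.21, 12.39 and 12.47 over the KHR tumours, against 12.08, 12.16 and 12.26 over the KHR-NICD tumours. In all, 4 of 6 KHR-NICD tumours lay below every KHR tumour, and 6 of 6 below the KHR median. Its means were 12.37 ± 0.093 and 12.18 ± 0.068 (SD, n = 6 each), giving -0.19 ± 0.073 (SE), or 1.14-fold lower (limma adjusted p = 0.285). Its SD within a type was larger than that of 1.70% of kept probes.

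Hsph1 (HSP110), the exchange factor (probe ILMN_2716098), had a lowest, median and highest log2 value of 10.05, 10.20 and 10.46 over the KHR tumours, against 10.24, 10.39 and 10.61 over the KHR-NICD tumours. Every KHR-NICD tumour was above the KHR median, and 2 of 6 were above every KHR tumour. The means were 10.23 ± 0.15 and 10.42 ± 0.15 (SD, n = 6 each), giving 0.19 ± 0.095 (SE, limma adjusted p = 0.405). The highest Hsph1 levels were those of the KHR-NICD tumours with Eif2s3y, 10.58 and 10.61. In tumours with Eif2s3y the difference was 0.45 (3 KHR, 2 KHR-NICD, limma adjusted p = 0.0824), and in those without it 0.018 (3 KHR, 4 KHR-NICD, limma adjusted p = 0.952). The test of that difference between the sets gave 0.43 ± 0.15 (SE, limma adjusted p = 0.179), and did not pass.

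Of the HSP90 proteins among the members, Hsp90b1 (GRP94), which folds integrins and Toll-like receptors in the endoplasmic reticulum (probe ILMN_2504433), was the one measured. Its lowest, median and highest log2 values were 11.42, 11.50 and 11.65 over the KHR tumours, against 11.46, 11.59 and 11.75 over the KHR-NICD tumours. The groups overlapped along most of their ranges. Its log2 difference was 0.085 ± 0.081 (SE), with an interval from -0.09 to 0.26 (limma adjusted p = 0.70). Its SD within a type, 0.11, exceeded that of 6.40% of kept probes.

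For 3 member probes no tested value exists. The Hspa5 probe was detected on 0 of 12 arrays, with detection p from 0.0526 to 0.585 and scanner signals from 137 to 172. For Hsp90aa1, the stress-induced cytosolic HSP90, 1 probe was detected on 0 arrays and the other on 2 of 12, KHR-NICD 3 and KHR-NICD 5, at log2 values of 5.58 and 5.55 against 5.35 at most in the other tumours. Neither fold nor bound is given for it, since its mean in KHR-NICD tumours lay under the lowest detected signals of the KHR arrays. A probe that is not above background does not show that its transcript is absent.

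Hspb1 showed the largest difference among members apart from the second Hspa8 probe. It is a small heat shock protein that holds unfolded proteins without ATP and binds actin filaments (probe ILMN_2706269). Its lowest, median and highest log2 values were 11.51, 11.79 and 12.04 over the KHR tumours, against 11.20, 11.37 and 11.84 over the KHR-NICD tumours. In all, 5 of 6 KHR-NICD tumours lay below every KHR tumour, and KHR-NICD 3 was the exception. The means were 11.78 ± 0.24 and 11.42 ± 0.22 (SD, n = 6 each), giving -0.36 ± 0.13 (SE) with an interval from -0.64 to -0.083, or 1.28-fold lower (limma adjusted p = 0.259).

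Hspb1 values were also set against Eif2s3y detection within each tumour type. They averaged 11.99 in KHR tumours without Eif2s3y and 11.57 in those with it, and the KHR-NICD averages were 11.47 without and 11.31 with. Every KHR tumour without Eif2s3y (11.94, 12.04 and 11.98) lay above every KHR tumour with it (11.55, 11.51 and 11.65). These are KHR 1 to 3 and KHR 4 to 6, with skeletal muscle scores of 8.885 to 10.08 and 6.80 to 8.23. Among KHR tumours Eif2s3y detection, replicate order and muscle score therefore cannot be told apart. In KHR-NICD tumours the values with Eif2s3y (11.20 and 11.42) and without it (11.31, 11.32, 11.42 and 11.84) overlapped, and without KHR-NICD 3 the average of those lacking Eif2s3y was 11.35 (n = 3). With both terms in 1 limma fit, the log2 difference of tumours with Eif2s3y from those without was -0.30 ± 0.11 (SE) (adjusted p = 0.0677), where 17.9% of all kept probes passed for that term and 0 of 7 member probes did. At an unadjusted p under 0.05 it was 1 of 7, Hspb1, beside 33.6% of all probes. In the same fit KHR-NICD minus KHR was -0.41 for Hspb1 (adjusted p = 0.0582). The difference was -0.52 within the 7 tumours without Eif2s3y and -0.26 within the 5 with it, and the interaction test did not pass (0.26 ± 0.20, SE, limma adjusted p = 0.53). For the interaction 0.247% of all kept probes passed and 0 of 7 member probes did. At an unadjusted p under 0.05 it was 2 of 7, Hsph1 and the second Hspa8 probe, beside 17.6% of all probes. Skeletal muscle scores lay between 7.71 and 10.08 without Eif2s3y and between 6.80 and 8.23 with it, and with the score as a covariate the Hspb1 difference between types was -0.34 (limma adjusted p = 0.134). Without KHR 1 and 2 it was -0.26 (limma adjusted p = 0.353).

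Marker lists of other cell types also had different, overlapping ranges by Eif2s3y detection. The mean log2 value of hair follicle keratins, of which 6 of 14 were measured, lay between 7.93 and 10.63 without Eif2s3y and between 6.95 and 8.36 with it. Limma called 0 of these 6 between tumour types, with 6 negative differences (median -0.64). The endothelial mean (8 of 10 measured) was 7.43 to 7.98 without Eif2s3y and 7.80 to 8.26 with it, and the neutrophil mean (7 of 10 measured) was 8.76 to 9.30 and 9.17 to 9.68. The keratinocyte mean (11 of 13 measured) was 11.50 to 11.74 without Eif2s3y and 11.417 to 11.575 with it. The part of keratinocyte, hair follicle, endothelial and neutrophil RNA in the Hspb1 values was not tested.

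**Figure D3:**
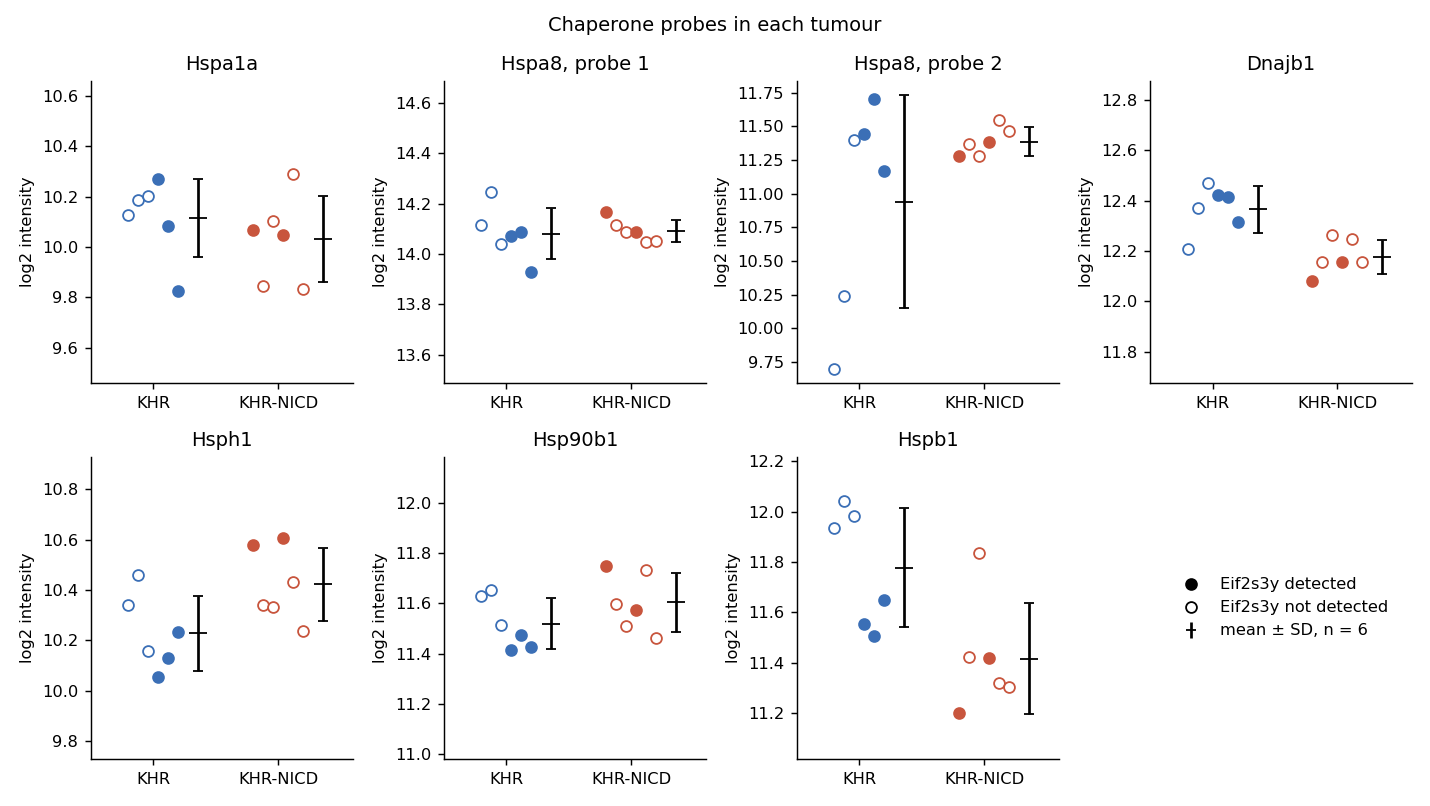
Log2 intensity of each kept member probe in every tumour, with the mean ± SD (n = 6) of each type; each panel has its own vertical axis, and filled circles mark tumours with Eif2s3y detected. KHR-NICD tumours sit low for Dnajb1 and, apart from 1, for Hspb1, and KHR 1 and 2 sit below all others on Hspa8 probe 2.

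How far members moved together from tumour to tumour depended on the scaling. Values over the 12 tumours were not centred by type, so r and its permutation p also take in the difference between types. Of 15 pairs among the 6 measured genes (1 probe each), 9 had a positive Pearson's r on quantile-normalized values and 1 passed adjustment, Hsph1 with Hsp90b1. With arrays centred on their medians in place of quantile normalization, a scaling run on all pairs after the data were seen, 14 of 15 were positive and 2 passed, the same pair and Hspb1 with Dnajb1. For Hsph1 and Hsp90b1 over the 12 tumours Pearson's r was 0.78 (permutation p = 0.00281, adjusted 0.042) and Spearman's rho 0.80 (permutation p = 0.00238, adjusted 0.036). It was 0.87 without the 2 tumours farthest from the Hsph1 median, 0.87 within KHR and 0.63 within KHR-NICD tumours (n = 6 each), and 0.80 in the 7 tumours without Eif2s3y. With median centring r was also 0.80 (permutation p = 0.00199, adjusted 0.0299). Within KHR tumours Hspb1 followed Hsp90b1 (r = 0.83) and Hsph1 (r = 0.74), where KHR-NICD tumours gave -0.53 and -0.32 (n = 6 each), and these are given as a description.

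Hsph1 and Dnajb1, which act on the same HSP70 cycle, ran in opposite directions on quantile-normalized values. Pearson's r was -0.70 (permutation p = 0.011, adjusted 0.085) and Spearman's rho -0.67 (permutation p = 0.02, adjusted 0.099), and neither passed adjustment. It was -0.61 without the 2 tumours farthest from the Hsph1 median, -0.56 and -0.41 within KHR and KHR-NICD tumours, and -0.21 in the 7 tumours without Eif2s3y. With median centring it was -0.16 over all tumours (permutation p = 0.62), and 0.15 and 0.084 within KHR and KHR-NICD tumours, so the negative sign within each type did not hold. Hspb1 and Dnajb1 gave r of 0.59 (permutation p = 0.047, adjusted 0.177) and rho of 0.70 (permutation p = 0.015, adjusted 0.099), with r of -0.20 within KHR and 0.70 within KHR-NICD tumours, and r of 0.38 without the 2 tumours farthest from the Hspb1 median. With median centring this pair gave r of 0.78 (permutation p = 0.00442, adjusted 0.0331), with 0.25 within KHR and 0.68 within KHR-NICD tumours.

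**Figure D4:**
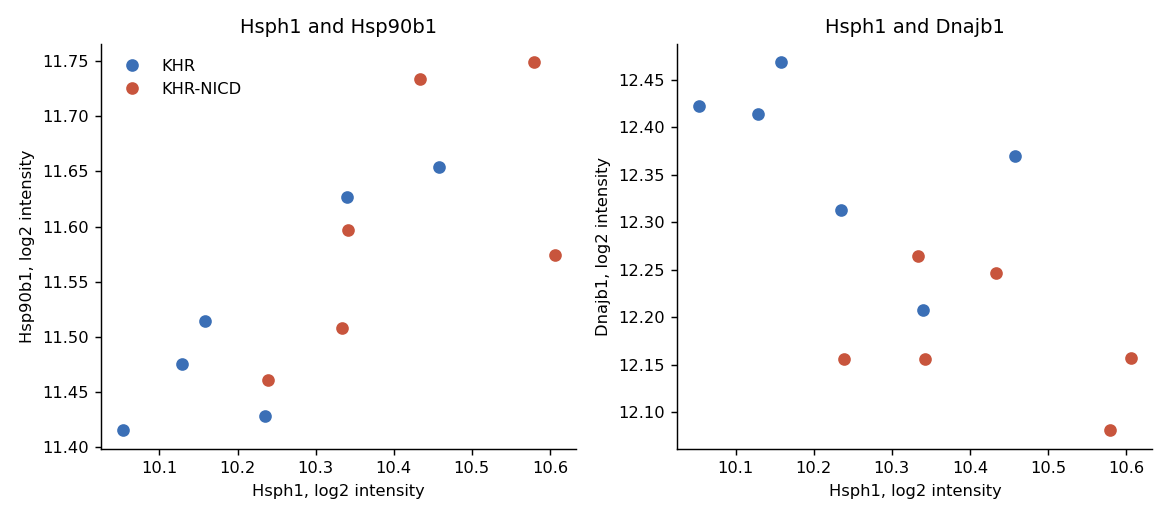
Log2 intensity of Hsph1 (horizontal axes) against Hsp90b1 (left) and Dnajb1 (right), 1 point per tumour. For Hsph1 and Hsp90b1, r was 0.87 within KHR and 0.63 within KHR-NICD tumours. KHR-NICD 4, the highest in Hsph1 (10.61), lay at 11.57 for Hsp90b1, below the KHR-NICD median of 11.59. The falling relation with Dnajb1 (r = -0.70) is on quantile-normalized values and was -0.16 with median centring.

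Beyond the members, 97 other chaperone genes were listed, of which 85 have a probe and 63 were measured. Limma called 0 of the 63, with 33 positive and 30 negative differences and a median of 0.024, beside 0.0831% of the 8420 genes called. At an unadjusted p under 0.05 there were 5 of 63, beside 13.6% of all genes. Those were Hspa4, Dnajb6, Ptges3, Hspd1 and Dnajc10.

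Among other HSP70 and HSP110 proteins, 0 of 5 measured genes passed and 4 of 5 differences were positive (median 0.074). Hspa4, an HSP110 relative of Hsph1, stood at 0.41 ± 0.16 (SE, limma adjusted p = 0.314), its log2 level being 6.01 ± 0.26 (KHR) and 6.42 ± 0.34 (KHR-NICD, SD, n = 6 each). The mitochondrial HSP70 Hspa9 stood at 0.074. Hspa2, an HSP70 known from the testis, stood at -0.27, and at 0.036 without KHR 1 and 2, where its level was 1.36 and 1.06 above the others' median.

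J-domain proteins and exchange factors were split, 7 positive and 7 negative of 14 (median 0.002). Dnajb6, which keeps aggregation-prone proteins soluble, had log2 levels of 10.07 ± 0.085 (KHR) and 9.85 ± 0.11 (KHR-NICD, SD, n = 6 each), or -0.21 ± 0.077 (SE, limma adjusted p = 0.26). It was the 1 chaperone of 63 whose groups did not overlap, beside 1.57% of all genes, but its other kept probe stood at 0.28. Dnaja2, a J-domain partner of HSP70, stood at 0.29 and Dnajc7, which also binds HSP90, at 0.24. Hspd1 (HSP60), the mitochondrial chaperonin, stood at 0.27 ± 0.11 (SE, limma adjusted p = 0.32), and at 0.58 on its other probe. Of the 8 measured chaperonin genes 7 were positive (median 0.067), with subunits Cct2 at 0.15 and Cct8 at 0.077 of the cytosolic TRiC ring.

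HSP90 cochaperones, a list that also holds the mitochondrial HSP90 Trap1 (-0.10), had 8 positive and 4 negative differences of 12 (median 0.051). Ptges3 (p23), which stabilises the closed form of HSP90, stood at 0.51 ± 0.23 (SE, limma adjusted p = 0.363), the myosin chaperone Unc45a at -0.12 and the immunophilin Fkbp4 at 0.13. The other small heat shock proteins were all 4 negative (median -0.17), with Hspb8 at -0.25, Cryab (alpha-B crystallin) at -0.30 and Hspb6 at -0.095. Without KHR 1 and 2 the last values were 0.16 for Cryab and 0.41 for Hspb6, both genes that muscle makes in quantity. Leaving out these tumours took Hspb7 from -0.012 to 0.49 and Hspb8 from -0.25 to -0.38. In KHR 1 and KHR 2 Cryab stood 2.11 and 0.61 above the others' median, and Hspb6 1.24 and 1.34. The part of muscle RNA in these values was not tested.

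Endoplasmic reticulum chaperones and unfolded protein response targets, whose best known members are Hspa5 and Hsp90b1, gave 0 called of 17, with 6 positive and 11 negative differences (median -0.079). Dnajc10, a reductase with a J domain, stood at 0.24 ± 0.098 (SE, limma adjusted p = 0.328). Calr (calreticulin), a lectin chaperone chosen after its values were seen, stood at -0.32, and at -0.65 without KHR 1 and 2 (limma adjusted p = 0.087). Sil1, the exchange factor of Hspa5, stood at -0.28, and Sel1l, a part of the machinery that exports misfolded proteins for degradation, at -0.18. The 3 kept Sel1l probes ranged from -0.18 to 0.053. Among heat shock factors and their regulators, 3 of 7 were measured, Hsf4 at -0.11, Hsbp1 at -0.12 and Hspbap1 at 0.045. The array's annotation lists no probe for Hsf1.

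Immediate early genes, which like Hspa1a respond within minutes to handling of tissue, had 0 of 14 measured genes called, 10 of them negative (median -0.14). At an unadjusted p under 0.05 there were 4 of 14, beside 13.6% of all genes. Without KHR 1 and 2 limma called 1 of the 14, Klf4, at -0.49 (adjusted p = 0.048) against -0.22 with them, where 0.511% of all genes were called and 0 of the 63 other chaperones. Junb stood at -0.36 ± 0.11 (SE, limma adjusted p = 0.195), and its groups did not overlap, as for 1.57% of all genes. Egr1 stood at -0.53 and Jun at 0.42. Their part in the chaperone values was not tested.

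**Figure D5:**
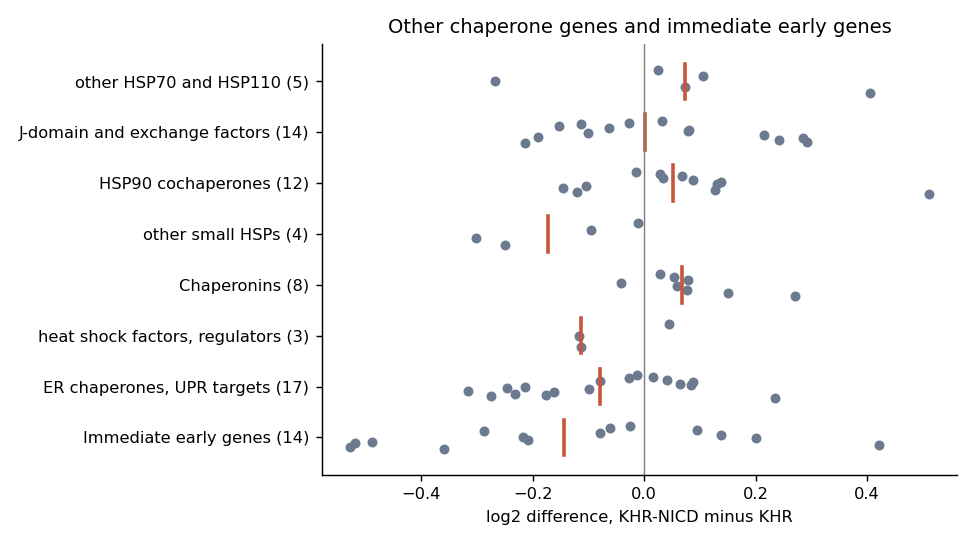
Log2 difference between KHR-NICD and KHR tumours for each measured gene (points, 1 probe per gene) of the other chaperone lists and the immediate early genes, with the list median as a red bar and the number of genes in parentheses. All lists straddle 0 except the 4 small heat shock proteins, and no gene passed adjustment with all 12 tumours.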

How the data were processed

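Values came from a deposited table with 4 columns per array. Its signal is the mean bead intensity per probe, not normalized between arrays, and its detection p-value compares a probe with background on that array, per the file headers; bead numbers and bead standard errors are other deposited measures that entered no test. A second table the authors deposited holds processed intensity with values below 0 and column medians from 16.4 to 16.7, and served as an alternative; how it was made is not stated. GenomeStudio and Partek, without versions, are the tools in the submitters' processing notes.

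The neqc function (limma 3.58.1, R 4.3.3) corrected the signals and quantile-normalized them to log2 values (background from detection p, offset 16). Levels are on that scale and are not compared between probes. KHR-NICD minus KHR was fitted with lmFit and eBayes over 11721 probes detected on at least 6 of 12 arrays, without a block. P-values were adjusted by Benjamini-Hochberg, with a threshold of 0.05. The fit was tested on simulated data. Lists used the brightest kept probe per gene. Correlations used 100000 permutations (numpy 2.4.6), two-sided, over 15 pairs, without regard to tumour type. Platform symbols gave 1 gene for 23978 probes, several for 0 and none for 1719; 23962 matched RefSeq by Entrez identifier.

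The members, lists, marker sets and alternatives were chosen with earlier results of these data known. Genes were named by a fixed rule: all member probes, the 3 smallest p of each chaperone list and of the immediate early genes, and the 5 genes closest to Hspa1a; Hspa5, also in that rule, had no kept probe. The values without KHR 1 and 2, Calr, Klf4, Hspb7 and Trap1 were chosen after their values were seen. So were the other probes of Hspd1, Dnajb6 and Sel1l, and the genes of the closing section outside this rule. Coordinates are those of the RefSeq promoter windows (GRCm38.p6); the array tables name no build, so none are given for probes.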

Additional observations from a re-analysis of the deposited data

Results flagged for a closer look

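Hspb1 in KHR-NICD tumour 3 was far from the other tumours of its type, at a log2 value of 11.84 against 11.42 in the nearest of them. The gap was 0.654 of the group's range, past Dixon's 95% limit for 6 samples. It was the 1 such value among 14 groups (7 probes in 2 tumour types), and chance alone gives about 1 in 20. The skeletal muscle score of this tumour, 9.46, was the highest among KHR-NICD tumours, and its part in the value was not tested. Without this tumour the Hspb1 difference was -0.44 (limma adjusted p = 0.174).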

How the results depend on the processing

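Under 28 alternatives the number of member probes called stayed at 0, and so did the number of other chaperone genes; the lowest adjusted p was 0.0582 for a member and 0.0620 for the others. The median difference over member probes ranged from -0.065 to 0.043. Hspa1a, Hspb1, Hsph1 and Dnajb1 kept their sign in all 28, which reuse the same tumours. Hspa1a ranged from -0.19 to -0.003 and Hsph1 from 0.019 to 0.45, so both came near 0. Hspb1 ranged from -0.52 to -0.26 and Dnajb1 from -0.32 to -0.14. Leaving out 1 tumour at a time gave -0.44 to -0.31 for Hspb1, -0.22 to -0.17 for Dnajb1, 0.16 to 0.24 for Hsph1, 0.20 to 0.60 for the second Hspa8 probe and -0.02 to 0.043 for the first, which was negative without KHR 6 (-0.02) and without KHR-NICD 1 (-0.004). With median centring, which moved the median of all probes to -0.076, the first Hspa8 probe stood at -0.065 and Hsp90b1 at -0.046, and within tumours without Eif2s3y they stood at -0.058 and -0.023. The second Hspa8 probe was at -0.11 within tumours with Eif2s3y and, an alternative chosen after seeing the data, at -0.042 without KHR 1 and 2. The cause of these sign changes was not tested. Over all probes the count of calls was 8, against 31 with median centring (3 higher, 28 lower), 14 with no background correction or an offset of 50, 13 with probes detected on all arrays, 17 of 8420 with 1 probe per gene, 26 with a trended robust variance, 125 with array weights, 0 with the replicate block, 238 with the Eif2s3y covariate, 114 with the muscle covariate, 183 with both, 1 and 0 within tumours without and with Eif2s3y, 60 without KHR 1 and 2, and 1 to 17 with 1 tumour left out. The labels state no pairing by replicate number. After subtracting each type's mean, same-numbered tumours correlated above 0.1 in 2 of 6 cases (r from -0.20 to 0.44). Of the KHR tumours, 1 of 6 correlated best with its own number. Correlations over all kept probes cannot settle whether same-numbered tumours were handled together. With the replicate block, Hspb1 had an adjusted p of 0.268 by limma and Dnajb1 of 0.35, at differences of -0.36 and -0.19.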

Other observations

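The second Hspa8 probe belonged to a set of probes on which KHR 1 and KHR 2 were both low. Of 11721 kept probes, 65 (0.555%) were below all other 10 tumours in both, by at least 1 log2 unit below the others' median, and 129 (1.10%) were above them by as much. Among genes with several kept probes, 28 had such a low probe, and 15 of them had another kept probe whose mean in KHR 1 and 2 was within 0.25 of the others' median, as Hspa8 has. Of 23 genes with several kept probes and such a high probe, 1 did. The genes closest to the second Hspa8 probe after subtracting each type's mean were Wasf2, Nasp, Rbm47, Hnrnpa2b1 and Rab6a, with r between 0.97 and 0.99 over 12 tumours. Those correlations rest on KHR 1 and 2, were read after the values were seen, and are given as a description.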
